A study of Mus musculus with 15 samples.

Results

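The genes described here are 10 enzymes of amino acid and folate metabolism that are known as targets of the transcription factor ATF4. They were chosen by name, with earlier results of these data known, and were found by gene symbol in the deposited expression tables. The 10 were present among the 23845 genes of those tables, and each passed the count filter that left 14335 genes for testing. Phgdh, Psat1 and Psph make serine from a glycolytic intermediate. Shmt2, Mthfd2 and Mthfd1l form the mitochondrial arm of folate metabolism. Aldh18a1 and Pycr1 make proline, Asns makes asparagine, and Pck2 is the mitochondrial form of phosphoenolpyruvate carboxykinase.

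Serine supplies glycine and carbon units. Mitochondria strip a carbon unit from serine onto folate and export it as formate, which the cytosol uses to build purines, thymidylate and methyl groups. ATF4 is a bZIP factor whose translation rises when the initiation factor eIF2 is phosphorylated, as in amino acid shortage, and it switches on synthesis, import and tRNA charging of amino acids. Mouse embryonic stem cells divide fast and have a high need for glycine and folate carbon, which they also draw from threonine.

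The cells were E14, an embryonic stem cell line of the mouse, kept on plates coated with gelatin (0.2%), and their poly(A) RNA was sequenced. There were 15 libraries in 5 groups of 3 biological replicates. The control group, EGFPKD, received small interfering RNA against EGFP, and the other groups, Ddx10KD, Ddx24KD, Ddx27KD and Ddx54KD, received small interfering RNA against a DEAD-box RNA helicase of that name. The title places the work among studies of factors found at R-loops (RNA paired with DNA) and of how ribosomal RNA is processed. All groups shared the line, the Lipofectamine transfection (400 ng of RNA and 4 µL of reagent, left on for 16 h) and harvest at 48 h. No transgene, deletion or drug is named for any group, and the number of different siRNA sequences per target is not given in the sources used here. Transfected cells were sequenced in bulk, so fewer cells that make a transcript and less transcript per cell cannot be told apart.

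Libraries held 26836946 to 27708782 expected counts, which are the reads that RSEM estimated for each gene. Each targeted transcript fell in its own knockdown, with Ddx10 at 18.5% of control, Ddx24 at 30.8%, Ddx27 at 22.7% and Ddx54 at 27.9%. The 12 pluripotency markers checked were present at 1 TPM or more in each group (TPM are transcript abundances scaled for gene length and depth). Their summed level was 8749 to 8908 TPM in EGFPKD and 8417 to 8801 TPM in the knockdowns. The 12 fibroblast markers summed to 21.0 to 28.9 TPM in EGFPKD and to 16.2 to 21.5 TPM in the knockdowns, mostly Thy1, with Postn and Fap at 0 in each library. The 7 primitive endoderm markers summed to 3.78 to 5.27 TPM in EGFPKD and 3.81 to 9.13 TPM in the knockdowns. The 8 trophoblast markers summed to 83.5 to 111.5 TPM in EGFPKD and to 101.4 to 157 TPM in the knockdowns, mostly Tfap2c, and the part of this shift in the results was not tested.

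The promoters of the 10 genes were searched for the composite element that ATF4 binds together with a C/EBP partner, the best known element through which ATF4 acts on such genes. Its core was searched as TGATGNAA, on both strands, in 300-base windows that run from 250 bases before to 50 bases after the transcription start (RefSeq, build GRCm38.p6). The core occurred in 3 of the 10 genes, Asns, Pycr1 and Pck2, and in 3.97% of all 32851 windows. The 3 stretches are printed 5′ to 3′ along the gene, with the match in capitals. In Pck2 the capitals are the core read from the opposite strand.
Asns: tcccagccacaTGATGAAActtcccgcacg
Pycr1: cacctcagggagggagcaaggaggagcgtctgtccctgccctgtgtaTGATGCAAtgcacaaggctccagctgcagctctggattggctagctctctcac
Pck2: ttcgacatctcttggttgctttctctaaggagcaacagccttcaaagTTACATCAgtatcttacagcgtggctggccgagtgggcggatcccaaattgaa
The Asns stretch is chr6:7693214-7693243 on the minus strand, from base -34 to base -5 relative to the RefSeq start, inside an annotated exon of Asns in GENCODE M21. The Pycr1 stretch is chr11:120643799-120643898 on the minus strand and the Pck2 stretch is chr14:55540116-55540215 on the plus strand. Both run from base -150 to base -51, hold no annotated exon, and carry the match at the same distance, from -103 to -96. A match of these letters is a description and does not show that a factor bound there. The palindrome TGACGTCA, the full cyclic AMP response element, occurred in 0 of the 10 genes and in 1.79% of windows. The E-box CACGTG, a site for MYC and related factors, occurred in Aldh18a1 alone of the 10, from -59 to -54, and in 7.15% of windows.

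All 10 enzymes fell in all 4 knockdowns, and in no comparison did a knockdown library reach a control library for any of them. A gene is called here at an adjusted p under 0.05 in the edgeR quasi-likelihood test, adjusted over all 14335 genes. The 10 of 10 called lower stand against 14.5% of all tested genes called lower in Ddx10KD, 13.1% in Ddx24KD, 16.1% in Ddx27KD and 11.2% in Ddx54KD. Groups without overlap in the lower direction were found for 22.4%, 19.6%, 23.3% and 19.5% of all genes in the same order. Genes called lower in all 4 knockdowns made up 7.31% of those tested (1048 genes). The median log2 change of the 10 was -0.75, -0.68, -0.75 and -0.69, while that of all genes was 0.0074, 0.0031, 0.0059 and 0.0081. The 4 comparisons share the 3 EGFPKD libraries, so a high or low control moves all of them together.

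**Figure D1:**
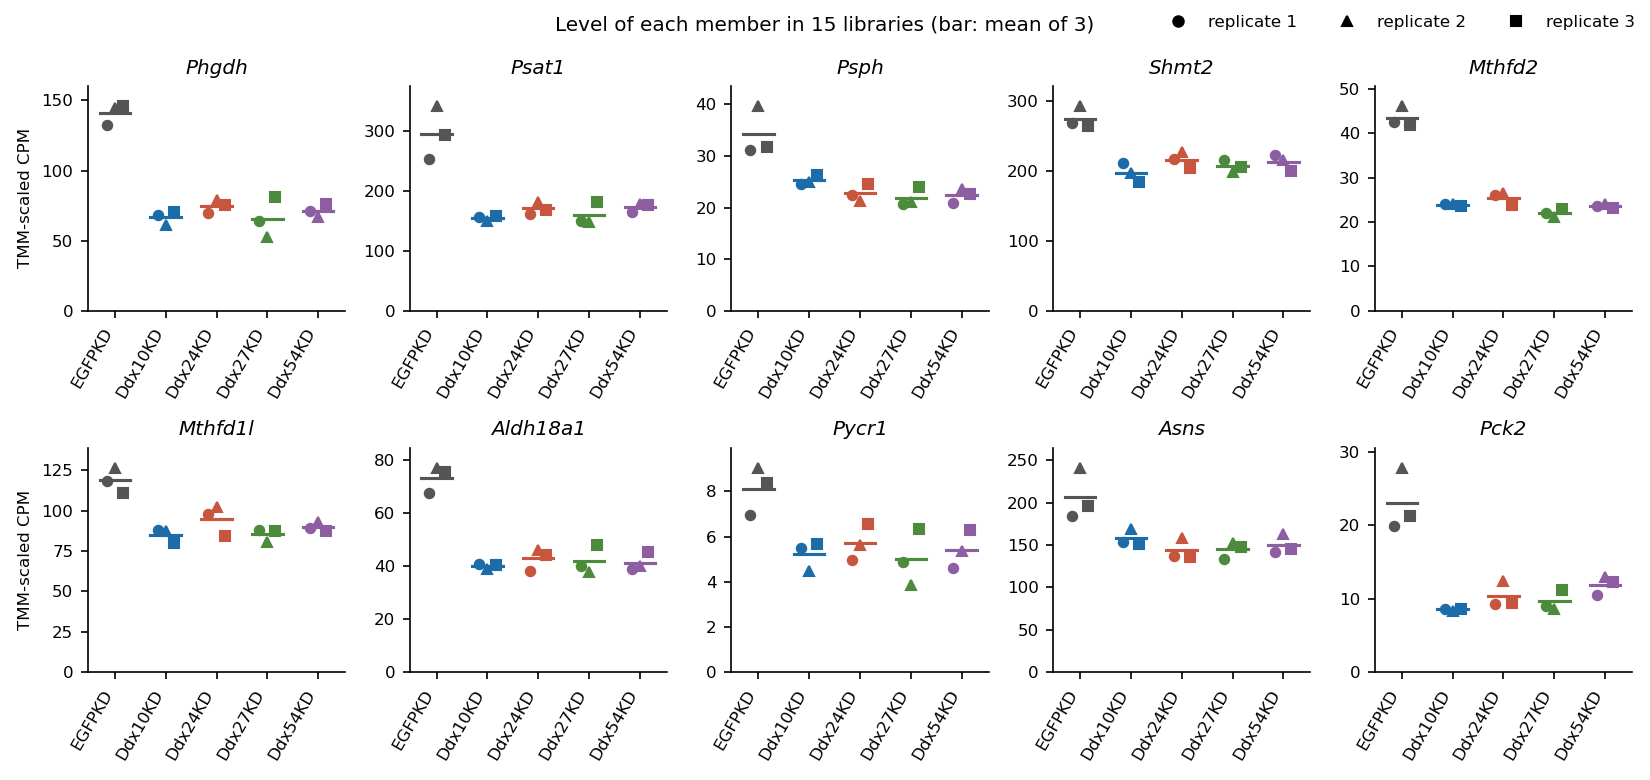
Level of each of the 10 enzymes in every library, in TMM-scaled CPM (counts relative to the scaled library size) on linear axes that start at 0. Each point is a library, its shape gives the replicate number and the bar is the mean of 3; in each panel the 3 EGFPKD points lie above all 12 knockdown points.

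In the serine pathway, Phgdh, the enzyme that commits carbon to serine, fell most in all 4 knockdowns. Its levels were 132.5, 145 and 146 TMM-scaled CPM (counts relative to the scaled size of the library) in EGFPKD. They were 68.4, 61.2 and 70.6 in Ddx10KD, 69.5, 78.8 and 75.2 in Ddx24KD, 63.7, 52.4 and 81.1 in Ddx27KD, and 70.9, 66.8 and 76.1 in Ddx54KD. Every knockdown library was far below the lowest control, and the widest spread was in Ddx27KD, where replicate 3 was high and replicate 2 low. The means were 47.3% ± 3.48, 52.9% ± 3.33, 46.6% ± 10.3 and 50.6% ± 3.28 of control (SD, n = 3). The fitted log2 changes were -1.08, -0.92, -1.10 and -0.98, each with an SE of 0.11, and the largest edgeR adjusted p was 1.954e-05.

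Psat1, the transaminase of the next step, was at 253, 340.3 and 292 CPM in EGFPKD. It was at 156, 149 and 157 in Ddx10KD, 161, 182 and 168 in Ddx24KD, 150, 148 and 181 in Ddx27KD, and 164, 178 and 176 in Ddx54KD. The controls themselves were spread widely, with replicate 2 high, and still did not meet the knockdowns. Psat1 fell by 0.94, 0.79, 0.89 and 0.77 on the log2 scale (SE 0.09 each, largest edgeR adjusted p 2.024e-05). Psph, the phosphatase that releases serine, was lower by less. It spanned 31.1 to 39.6 CPM in the controls and 20.7 to 26.4 CPM in the 12 knockdown libraries. Its mean was 74.1% ± 2.78 of control in Ddx10KD, 66.6% ± 5.01 in Ddx24KD, 64.1% ± 5.21 in Ddx27KD and 65.6% ± 3.98 in Ddx54KD (SD, n = 3), with a largest edgeR adjusted p of 0.002169. Of the 3 serine enzymes Psph alone had its smallest log2 change in Ddx10KD, at -0.43 ± 0.09 (SE), where Psat1 had its largest. Neither gene was called between any pair of knockdowns by edgeR.

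Among the mitochondrial folate enzymes, Mthfd2, which oxidizes methylene-folate, fell about as much as Psat1 and with little spread between replicates. It was at 42.6, 46.1 and 41.8 CPM in EGFPKD. It was at 24.1, 24.0 and 23.6 in Ddx10KD, 26.1, 26.6 and 23.8 in Ddx24KD, 22.0, 21.1 and 22.9 in Ddx27KD, and 23.7, 24.1 and 23.3 in Ddx54KD. The 3 Ddx10KD values were nearly the same, and the gap to the controls was wide in each knockdown. The log2 changes were -0.86, -0.77, -0.98 and -0.88 (SE 0.06 each). The edgeR adjusted p ran from 2.71e-08 in Ddx27KD to 3.838e-07 in Ddx24KD, and in each of the 4 knockdowns it was the smallest of the 10 enzymes.

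Shmt2, which moves the carbon unit from serine to folate, and Mthfd1l, the formate-releasing synthetase, showed the smallest mean changes of the 10 over the 4 knockdowns, together with Asns. Shmt2 spanned 265 to 293 CPM in EGFPKD and 184 to 228 CPM in the knockdowns. It fell by 0.48, 0.35, 0.41 and 0.37 on the log2 scale (SE 0.06 each, largest edgeR adjusted p 0.0006533). Mthfd1l was at 119, 126.5 and 111 CPM in EGFPKD, and at 97.7, 102 and 84.6 CPM in Ddx24KD, where it came nearest to the controls. In the other knockdowns it spanned 80.0 to 92.9 CPM. Its log2 changes were -0.48, -0.32, -0.48 and -0.40 (SE 0.07 each, largest edgeR adjusted p 0.002616).

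For proline, Aldh18a1, the enzyme that starts the route from glutamate, fell to a similar level in the 4 knockdowns. It was at 67.5, 76.9 and 75.4 CPM in EGFPKD. It was at 40.6, 38.8 and 40.4 in Ddx10KD, 38.2, 46.1 and 44.3 in Ddx24KD, 40.0, 37.6 and 47.7 in Ddx27KD, and 38.8, 39.9 and 45.2 in Ddx54KD. No knockdown library came near the lowest control. The means were 54.5%, 58.5%, 57.0% and 56.3% of control with SDs of 1.37, 5.66, 7.21 and 4.68 percentage points (n = 3), and the largest edgeR adjusted p was 1.4e-05.

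Pycr1, which completes proline in mitochondria, was the least abundant of the 10 and the least certain. It was at 6.94, 9.04 and 8.39 CPM in EGFPKD. It was at 5.51, 4.46 and 5.68 in Ddx10KD, 4.95, 5.63 and 6.57 in Ddx24KD, 4.89, 3.86 and 6.32 in Ddx27KD, and 4.62, 5.38 and 6.27 in Ddx54KD. Replicate 3 was the highest library in each knockdown, and the top Ddx24KD value lay just under the lowest control. The log2 changes were -0.64, -0.51, -0.69 and -0.58 (SE 0.17 each), with edgeR adjusted p of 0.01009, 0.03605, 0.005472 and 0.02092. With the replicate block the edgeR adjusted p of Pycr1 were 0.000683, 0.00411, 0.000276 and 0.00169. Pycr1 was the only enzyme of the 10 whose call was lost when a library was left out, in fits without the block. In Ddx10KD this happened without Ddx10KD replicate 2 (adjusted p 0.0514). In Ddx24KD it happened without EGFPKD replicate 2 (0.123), EGFPKD replicate 3 (0.0933), Ddx24KD replicate 1 (0.130) or Ddx24KD replicate 2 (0.0656). In Ddx54KD it happened without EGFPKD replicate 2 (0.0790), EGFPKD replicate 3 (0.0602), Ddx54KD replicate 1 (0.0782) or Ddx54KD replicate 2 (0.0550).

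Asns, which amidates aspartate to asparagine and is a textbook ATF4 target, was among the less changed of the 10. It was at 185, 241 and 196 CPM in EGFPKD. It was at 153, 169 and 152 in Ddx10KD, 138, 158 and 135 in Ddx24KD, 134, 152.5 and 148 in Ddx27KD, and 141, 163.5 and 146 in Ddx54KD. The highest Ddx10KD library came nearest to the controls without reaching them. Asns fell by 0.39, 0.53, 0.52 and 0.46 on the log2 scale (SE 0.09 each, largest edgeR adjusted p 0.003932, in Ddx10KD).

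Pck2, which makes phosphoenolpyruvate from oxaloacetate inside mitochondria, had the largest mean change of the 10. It was at 19.9, 27.8 and 21.2 CPM in EGFPKD. It was at 8.64, 8.37 and 8.59 in Ddx10KD, 9.33, 12.4 and 9.43 in Ddx24KD, 9.07, 8.62 and 11.2 in Ddx27KD, and 10.6, 13.0 and 12.2 in Ddx54KD. The Ddx10KD libraries were the lowest and almost equal, the Ddx54KD libraries the highest of the knockdowns, and these 2 groups did not overlap, as for 9.84% of all genes in that direction. The means were 37.2% ± 0.619, 45.2% ± 7.56, 41.9% ± 5.98 and 52.0% ± 5.42 of control (SD, n = 3). The log2 changes were -1.43, -1.14, -1.25 and -0.94 (SE 0.14 each, largest edgeR adjusted p 0.0001289).

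**Figure D2:**
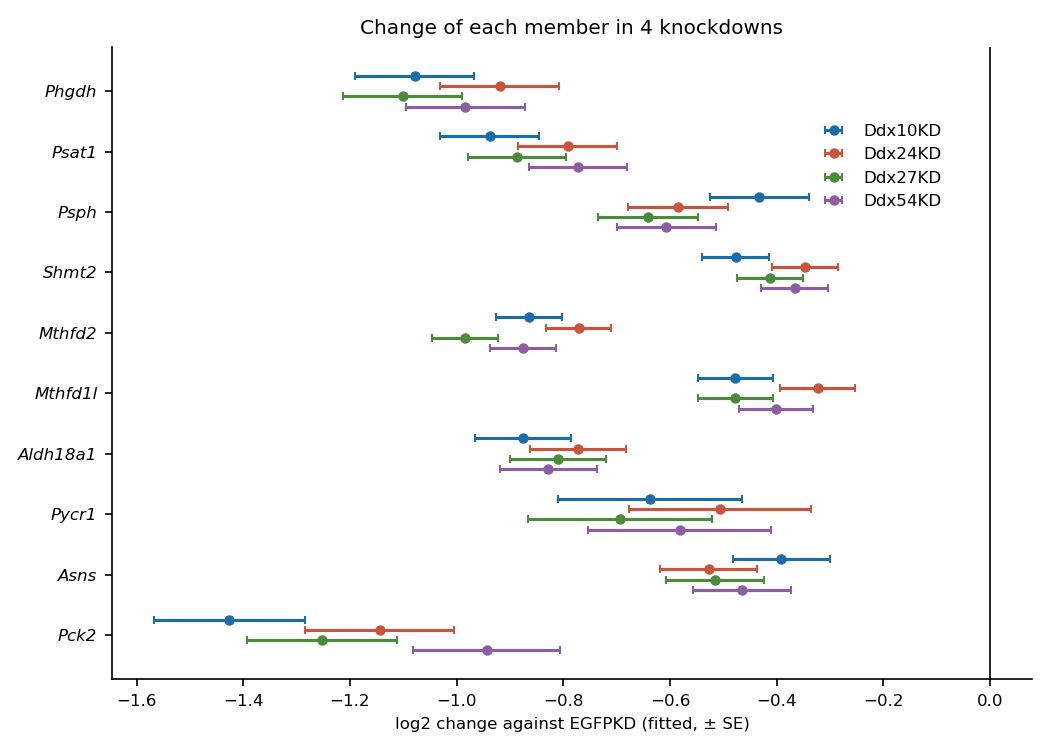
Fitted log2 change of each enzyme against EGFPKD, with its SE, for the 4 knockdowns in 4 colours. All 40 points lie left of 0, from -1.43 (Pck2 in Ddx10KD) to -0.32 (Mthfd1l in Ddx24KD).

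Ranked by the mean log2 change over the 4 knockdowns, the 10 fell between -1.19 for Pck2 and -0.40 for Shmt2. Only 0.33% of all tested genes had a lower mean than Pck2, 0.64% a lower mean than Phgdh, and 1.11% to 1.33% a lower mean than Mthfd2, Psat1 and Aldh18a1. The shares were 3.2% for Pycr1, 3.77% for Psph, 5.41% for Asns, 7.1% for Mthfd1l and 7.59% for Shmt2. The 3 genes whose promoter window held the ATF4 core thus included the most changed enzyme, Pck2, and one of the least changed, Asns. Level and change did not run in the same order. Per length, Psat1 was the most abundant in EGFPKD (277 ± 37.1 TPM), followed by Shmt2 (244 ± 9.91), Asns (220.5 ± 28.3) and Phgdh (155 ± 7.12). Mthfd1l (64.4 ± 3.43), Psph (46.0 ± 5.62), Mthfd2 (43.0 ± 1.63) and Aldh18a1 (41.9 ± 2.498) came next, then Pck2 (13.6 ± 2.29) and Pycr1 (5.64 ± 0.679, all SD, n = 3). Control values overlapped between Psat1 and Shmt2, between Shmt2 and Asns, between Psph and Mthfd2, and between Mthfd2 and Aldh18a1, and the other neighbours in this order did not overlap. Summed, the 10 transcripts made up 1111 ± 89.8 TPM in EGFPKD, 725.7 ± 17.7 in Ddx10KD, 734.2 ± 25.7 in Ddx24KD, 703.3 ± 58.7 in Ddx27KD and 736.8 ± 11.8 in Ddx54KD (SD, n = 3). The sums in the knockdowns were 65.3%, 66.1%, 63.3% and 66.3% of control.

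The knockdowns were also compared with each other, in 6 pairs. None of the 60 combinations of an enzyme and a pair was called by edgeR (6 had an unadjusted p under 0.05, and 14 with the replicate number as a block), where 0.359% of such combinations were called over all genes. limma-voom called none either, with 5 at an unadjusted p under 0.05. The share of all genes at an unadjusted p under 0.05 is not given, so these unadjusted counts have no background. The smallest adjusted p was that of Pck2, which was higher in Ddx54KD than in Ddx10KD by 0.48 ± 0.15 on the log2 scale (SE, edgeR adjusted p 0.117). Same-numbered replicates deviate together in these libraries, and with the block this difference passed the threshold (edgeR adjusted p 0.0156), as it did in DESeq2 (adjusted p 0.0441). No share of all genes called is given for either of these fits. Mthfd2 was lower in Ddx27KD than in Ddx24KD by 0.21 ± 0.06 on the log2 scale without overlap of the libraries (3.16% of all genes in that direction), at an unadjusted edgeR p of 0.00386 and an adjusted p of 0.998. A p above the threshold does not show that the knockdowns acted alike.

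Some libraries stood high or low for the 10 enzymes together. EGFPKD replicate 2 was above its group mean for 10 of 10, with a median deviation of 0.127 on the log2 scale, and was the highest control for 9 of the 10. EGFPKD replicate 1 was above its mean for 1 of 10 (median -0.121). Ddx27KD replicate 3 was above for 9 of 10 (median 0.160) and Ddx24KD replicate 2 for 8 of 10 (0.0893). Without EGFPKD replicate 2 the median change of the 10 was -0.69 in Ddx10KD, -0.58 in Ddx24KD, -0.69 in Ddx27KD and -0.58 in Ddx54KD, and 10, 9, 10 and 9 of the 10 were called lower, the exception being Pycr1. Without Ddx24KD replicate 2 the median in Ddx24KD was -0.70 with 9 called.

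**Figure D3:**
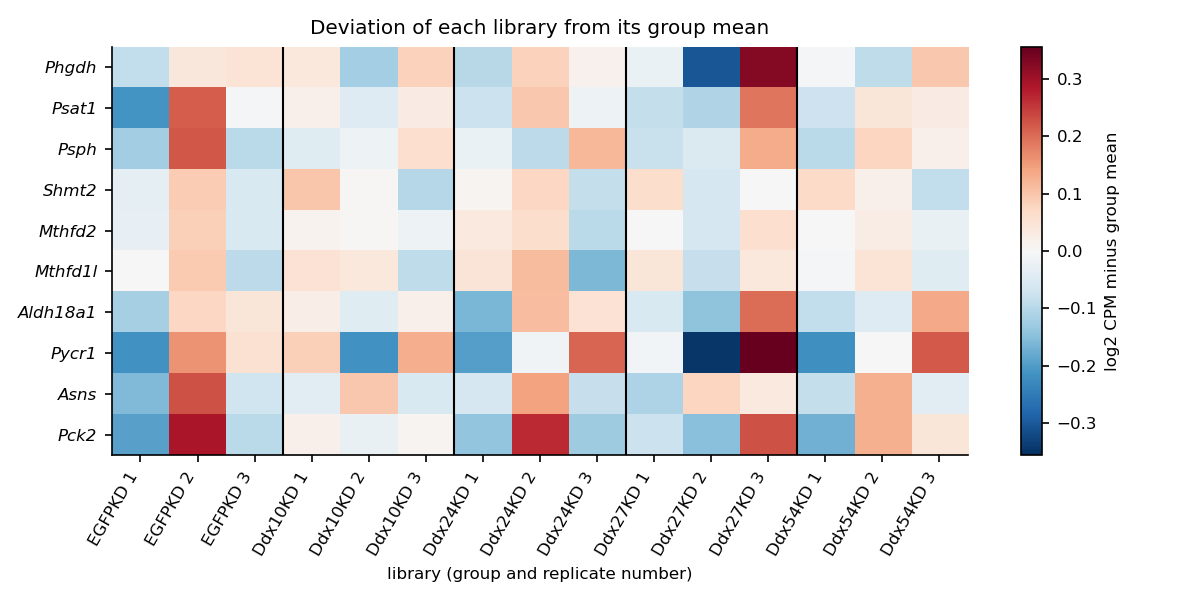
Deviation of each library from the mean of its own group, on the log2 CPM scale, for the 10 enzymes (vertical axis) in 15 libraries (horizontal axis, group and replicate number). Red is above and blue below the group mean; the EGFPKD 2 column is red for 10 of 10 enzymes and the Ddx27KD 3 column for 9 of 10.

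Several of the 10 have a cytosolic or parallel counterpart, and these rose, fell by less or were not called. Mthfd1, the cytosolic folate enzyme that carries the synthetase activity of Mthfd1l, was at 381 CPM in EGFPKD and 418 to 428 CPM in the knockdowns. It rose by 0.13, 0.16, 0.17 and 0.15 on the log2 scale (SE 0.05 each), with edgeR adjusted p of 0.0373, 0.0143, 0.0106 and 0.0239. With the replicate block the edgeR adjusted p of Mthfd1 were 0.00303, 0.000626, 0.000441 and 0.00129. In fits without the block these calls depended on single libraries. Leaving out a library ended the call in Ddx10KD in 8 of the 15 cases (highest adjusted p 0.128, without Ddx10KD replicate 2), and in Ddx24KD without EGFPKD replicate 1 (0.0537). It also ended the call in Ddx27KD without Ddx27KD replicate 2 (0.0598), and in Ddx54KD without EGFPKD replicate 1 (0.0827), EGFPKD replicate 3 (0.0684), Ddx54KD replicate 1 (0.0715) or Ddx54KD replicate 2 (0.0719). The ratio of Mthfd1l to Mthfd1 in TPM was 0.278 ± 0.0147 in EGFPKD and 0.182, 0.1985, 0.1785 and 0.189 in the knockdowns, with no overlap.

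Shmt1, the cytosolic counterpart of Shmt2, fell as well, by 0.18, 0.27, 0.36 and 0.28 on the log2 scale (SE 0.05 each, edgeR adjusted p at most 0.0124). Its call in Ddx10KD was lost without Ddx10KD replicate 2 (0.0666) or EGFPKD replicate 3 (0.0704). The ratio of Shmt2 to Shmt1 in TPM was 0.864 ± 0.0847 in EGFPKD and 0.703 ± 0.0618 in Ddx10KD, without overlap, and 0.808 to 0.831 in the other knockdowns, where the libraries overlapped the controls. Mthfd2l, the paralogue of Mthfd2, was near 1.42 TPM in EGFPKD and 1.77 to 2.15 TPM in the knockdowns, was not called in any knockdown and overlapped between groups. With the replicate block it was called in Ddx24KD alone (edgeR adjusted p 0.0194).

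Pycrl, the cytosolic enzyme now named Pycr3 that also completes proline, fell by 0.27, 0.33, 0.37 and 0.27 on the log2 scale (edgeR adjusted p at most 0.00743). Pck1, the cytosolic counterpart of Pck2, had too few counts to be tested. Whether each enzyme's change differed from that of its counterpart was not tested.

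**Figure D4:**
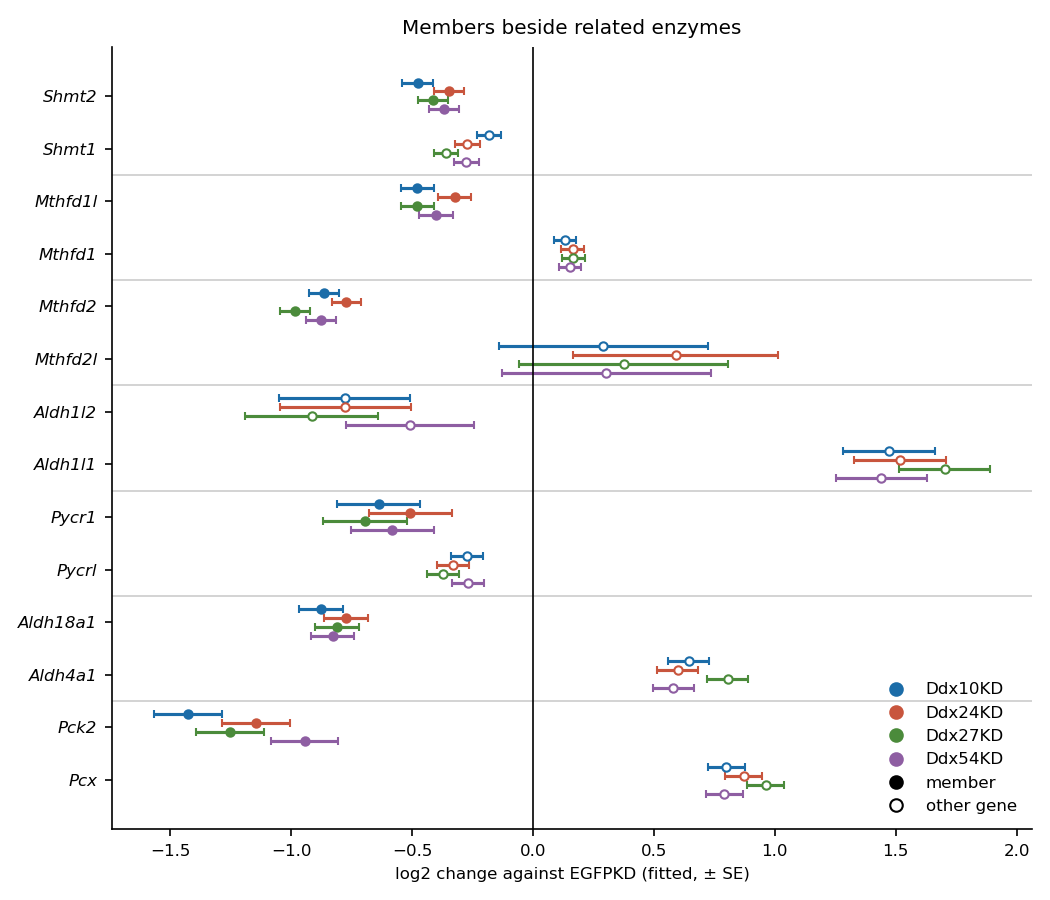
Fitted log2 change against EGFPKD, with SE, for 6 of the 10 enzymes (filled points) and related enzymes (open points), set in pairs, with the knockdowns in 4 colours. The filled points lie left of 0, while Mthfd1, Mthfd2l (not called), Aldh1l1, Aldh4a1 and Pcx lie right of it, up to 1.70 for Aldh1l1 in Ddx27KD.

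Beyond the 10, 83 further genes of the same pathways were listed and 77 of them could be tested. Of the 77, 29, 25, 30 and 24 were called lower in Ddx10KD, Ddx24KD, Ddx27KD and Ddx54KD, and 10, 11, 12 and 11 were called higher. The counts with the replicate block were 35, 36, 38 and 34 lower and 15, 14, 18 and 15 higher. No share over all genes is given for the fit with the block, here or for the lists below. Over all tested genes, the share called higher without the block lay between 13.1% (Ddx54KD) and 17.3% (Ddx27KD). The share called lower lay between 11.2% (Ddx54KD) and 16.1% (Ddx27KD). Without the block, the calls higher among the 77 were thus near the share over all genes, and the calls lower were above it. The median log2 changes of the 77 were -0.14, -0.13, -0.14 and -0.09. The other genes of these pathways were called in both directions and the 10 in only 1. The 10 and these lists were chosen with earlier results of these data known, so that contrast may follow from the choice. Among 11 further genes of serine and glycine use, 6 were called lower in each knockdown and 0, 0, 0 and 1 higher (0, 0, 1 and 2 higher with the replicate block). Gldc, the decarboxylase of glycine cleavage, fell by 0.59, 0.50, 0.57 and 0.58 on the log2 scale (edgeR adjusted p at most 0.000825), and Gcsh, its carrier protein, by 0.36, 0.31, 0.37 and 0.27. The Gcsh call in Ddx54KD was lost without Ddx54KD replicate 3 (adjusted p 0.0791) or EGFPKD replicate 2 (0.0515). Gcat, which makes glycine from a threonine product, fell by 0.39, 0.42, 0.46 and 0.39. Tdh, threonine dehydrogenase and also of the 11, was at 0.0039, 0.071, 0.032 and -0.076 and was not called (edgeR adjusted p at least 0.419).

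Among 15 further folate genes, 5, 6, 7 and 4 were called lower and 2 higher in each knockdown. With the replicate block 7, 8, 8 and 8 were called lower and 2, 3, 2 and 2 higher. Aldh1l1, the cytosolic enzyme that burns off formyl-folate, rose from 4.88 CPM in EGFPKD to 13.6, 14.0, 15.9 and 13.3 CPM, by 1.47, 1.52, 1.70 and 1.44 on the log2 scale (SE 0.19 each, edgeR adjusted p at most 5.164e-05). Its mitochondrial counterpart Aldh1l2, an ATF4 target, was lower at 2.79 CPM in EGFPKD and 1.62, 1.63, 1.47 and 1.95 CPM in the knockdowns. Aldh1l2 was called in Ddx10KD, Ddx24KD and Ddx27KD and not in Ddx54KD (edgeR adjusted p 0.0383, 0.0424, 0.0170 and 0.176). With the replicate block it was called in all 4 (0.00339, 0.00406, 0.00103 and 0.0420). The 3 unblocked calls were all lost without EGFPKD replicate 2 (adjusted p 0.200, 0.214 and 0.104), and other libraries ended them too. In Ddx10KD these were EGFPKD replicate 3 (0.0563), Ddx10KD replicate 1 (0.0782) and Ddx10KD replicate 3 (0.172), and in Ddx27KD it was Ddx27KD replicate 1 (0.0628). In Ddx24KD they were EGFPKD replicate 3 (0.0624), Ddx24KD replicate 1 (0.153), Ddx24KD replicate 3 (0.0705) and Ddx10KD replicate 1 (0.0506). Folr1, a folate receptor, was called lower in Ddx24KD and Ddx27KD (-0.55 and -0.56, edgeR adjusted p 0.0371 and 0.0283), and both calls were lost without EGFPKD replicate 2 (0.136 and 0.113), EGFPKD replicate 3 (0.0680 and 0.0529) or replicate 1 (0.115 and 0.0690) or replicate 3 (0.149 and 0.131) of the knockdown itself. With the replicate block Folr1 was called lower in all 4 knockdowns (edgeR adjusted p 0.000294, 3.672e-05, 2.01e-05 and 0.0150).

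Some enzymes next to the proline and phosphoenolpyruvate steps rose while the 10 fell. Aldh4a1, the mitochondrial dehydrogenase of proline breakdown, rose from 59.5 CPM to 92.9, 90.1, 104 and 89.0 CPM, by 0.64, 0.60, 0.80 and 0.58 on the log2 scale (edgeR adjusted p at most 0.000117), as Aldh18a1 fell. Of the 6 further proline genes, 1, 2, 1 and 2 were called lower and 1, 2, 2 and 1 higher, against 1, 2, 2 and 2 lower and 2, 2, 3 and 1 higher with the replicate block. Prodh, proline dehydrogenase and also of the 6, was at -0.08, -0.42, -0.28 and -0.31. It was called lower in Ddx24KD and Ddx54KD (edgeR adjusted p 0.00786 and 0.0444), and with the block in Ddx27KD as well (0.00831). Of 6 further genes around pyruvate and phosphoenolpyruvate, 3 were called higher in each knockdown, and 1, 0, 1 and 1 were called lower (2, 1, 2 and 2 with the replicate block). Pcx, which makes the oxaloacetate that Pck2 consumes, rose from 45.3 CPM to 78.9, 82.9, 88.3 and 78.4 CPM, by 0.80, 0.87, 0.96 and 0.79 (edgeR adjusted p at most 3.266e-06). Fbp1, fructose bisphosphatase, rose by 1.39, 1.97, 1.78 and 1.32 from 0.429 CPM (edgeR adjusted p at most 0.00958). Fbp2, its muscle-type isozyme, rose by 1.27, 1.20, 1.09 and 1.13 from 1.58 CPM, with calls lost on leaving out a library in all 4 knockdowns. The adjusted p of Fbp2 then reached at most 0.0557 in Ddx10KD (without Ddx10KD replicate 2), 0.0975 in Ddx24KD (without Ddx24KD replicate 3), 0.187 in Ddx27KD (without Ddx27KD replicate 2) and 0.116 in Ddx54KD (without Ddx54KD replicate 2).

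Of 12 further genes of aspartate, asparagine, glutamine and alanine metabolism, 4, 4, 4 and 5 were called lower and 2 higher in each knockdown. With the replicate block 6, 6, 7 and 5 were called lower. Gpt2, the mitochondrial alanine transaminase and an ATF4 target, fell from 67.1 CPM to 30, 32.0, 30.1 and 35.4 CPM, by 1.16, 1.07, 1.16 and 0.92 on the log2 scale (edgeR adjusted p at most 4.41e-06), in the range of Phgdh and Pck2. Glul, glutamine synthetase, fell by 0.50, 0.45, 0.55 and 0.50 (edgeR adjusted p at most 0.00128). Ass1, which spends aspartate on argininosuccinate, rose by 0.49, 0.48, 0.55 and 0.63 (edgeR adjusted p at most 0.00726).

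Of 12 genes of purine synthesis, which uses the formate that mitochondria export, 7, 5, 7 and 4 were called lower and 1 higher in each knockdown, against 8, 7, 8 and 7 lower and 2, 2, 3 and 1 higher with the replicate block. Atic, a folate-dependent step, fell by 0.49, 0.39, 0.48 and 0.45 on the log2 scale (edgeR adjusted p at most 0.00569). Adsl, adenylosuccinate lyase, fell by 0.24, 0.33, 0.37 and 0.35, and Prps2, which makes the ribose donor, rose by 0.45, 0.50, 0.58 and 0.39 (edgeR adjusted p at most 0.00628 for both). The 9 methionine cycle genes gave 2, 1, 2 and 2 calls lower and 1, 0, 1 and 0 higher (2 lower in each and 2, 1, 2 and 2 higher with the replicate block). Ahcy, the hydrolase of S-adenosylhomocysteine, fell by 0.30, 0.23, 0.17 and 0.19, and its Ddx27KD call was lost without EGFPKD replicate 1 (edgeR adjusted p 0.0614), EGFPKD replicate 3 (0.0711) or Ddx27KD replicate 2 (0.0711). The 6 genes of transsulfuration and glutathione gave 3, 1, 2 and 0 calls lower and 0, 1, 1 and 1 higher, and 3, 4, 3 and 2 lower and 2, 1, 2 and 2 higher with the replicate block. Cth, which makes cysteine, was at -0.62, -0.50, -0.41 and -0.31, called in Ddx10KD, Ddx24KD and Ddx27KD and not in Ddx54KD (edgeR adjusted p 0.106). It was called in Ddx54KD as well with the replicate block (0.000777). The Cth call in Ddx24KD was lost without Ddx24KD replicate 3 (0.0574), and that in Ddx27KD without Ddx27KD replicate 3 (0.124), EGFPKD replicate 1 (0.0633) or EGFPKD replicate 2 (0.0759).

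Atf4 itself was lower by less than most of the 10. Its transcript was at 214.5, 239 and 221 CPM in EGFPKD. It was at 158, 166 and 141 in Ddx10KD, 185, 203 and 185 in Ddx24KD, 197, 209 and 189 in Ddx27KD, and 175, 200 and 169 in Ddx54KD. No knockdown library reached a control, and the Ddx10KD libraries were the lowest, the highest of them lying just under the lowest of Ddx54KD. The log2 changes were -0.54, -0.24, -0.18 and -0.31 (SE 0.07 each), with edgeR adjusted p of 4.889e-05, 0.0224, 0.0617 and 0.00559, so that Atf4 was not called in Ddx27KD (with the replicate block, adjusted p 0.000617). The Ddx24KD call was lost without EGFPKD replicate 2 (0.0938), Ddx24KD replicate 1 (0.0741) or Ddx24KD replicate 3 (0.0813). In Ddx27KD, where Atf4 changed least, Phgdh, Mthfd2, Psph and Pycr1 had their largest changes. Psat1, Shmt2, Mthfd1l, Aldh18a1 and Pck2 had theirs in Ddx10KD, where Atf4 changed most, and Asns had its largest in Ddx24KD. Some of these ranks rest on very small differences, as for Mthfd1l at -0.4777 in Ddx10KD and -0.4775 in Ddx27KD. Without the replicate block edgeR called no difference between knockdowns for any of the 10. Whether the changes of the 10 followed that of Atf4 was not tested. ATF4 is controlled mainly at translation, and its protein was not measured here.

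Of 17 regulators of this response, 7, 5, 7 and 5 were called lower and 2, 4, 3 and 1 higher (7, 7, 8 and 7 lower and 4 higher in each with the replicate block). Sesn2, a stress-induced inhibitor of mTORC1 signalling and itself an ATF4 target, rose by 0.49, 0.42, 0.60 and 0.38 on the log2 scale (edgeR adjusted p at most 0.00079). Atf5, a relative of ATF4, fell by 0.31, 0.59, 0.39 and 0.48. Its Ddx10KD call (edgeR adjusted p 0.0455) was lost in 6 of the 15 fits without a library, up to 0.238 without EGFPKD replicate 2. Its Ddx27KD call (0.0123) was lost without EGFPKD replicate 2 (0.0807) or Ddx27KD replicate 3 (0.0567). Myc fell by 0.67, 0.35, 0.42 and 0.31 (edgeR adjusted p at most 0.00456). Its relative Mycn, also of the 17, rose by 0.42, 0.49, 0.45 and 0.12. Mycn was called in Ddx10KD, Ddx24KD and Ddx27KD (edgeR adjusted p 0.00598, 0.00275 and 0.00343) and not in Ddx54KD (0.435). With the replicate block Mycn was called in Ddx54KD as well (0.00771).

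The genes whose 5 group means most resembled the median pattern of the 10 were sought among 8091 genes with a mean of 10 TPM or more. Centred on its own mean, the pattern of the 10 was 0.57 in EGFPKD, -0.16 in Ddx10KD, -0.11 in Ddx24KD, -0.20 in Ddx27KD and -0.09 in Ddx54KD on the log2 scale. The nearest were Yars (root mean square difference 0.0221), Scd1 (0.0242), Ina (0.0269), Sars (0.0285) and Nars (0.0297), over 5 groups. Yars, Sars and Nars are cytosolic tRNA synthetases for tyrosine, serine and asparagine, Scd1 is a fatty acid desaturase and Ina a neuronal filament protein.

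In the authors' deposited tables, made with EBSeq, the posterior probability of differential expression reached 0.95 for 9, 9, 10 and 9 of the 10 enzymes in Ddx10KD, Ddx24KD, Ddx27KD and Ddx54KD. The exceptions in the authors' deposited table were Asns in Ddx10KD (ratio 0.760, probability 0.574) and in Ddx54KD (ratio 0.721, probability 0.862), and Mthfd1l in Ddx24KD (ratio 0.773, probability 0.8275). The authors' deposited log2 ratios differed from the fitted changes of the 10 by at most 0.0478, in Ddx24KD, and by at most 0.0079 in the other knockdowns.

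The counts behind the 10 differed widely, from 106 to 242 expected counts per library for Pycr1 and 227 to 744 for Pck2 up to 4019 to 9112 for Psat1. Reads that also match another place were shared out by RSEM, which leaves counts that are not whole. With a tolerance of 0.05, counts were not whole in 15 libraries for Mthfd1l, 14 for Psat1, 10 for Shmt2, 7 for Mthfd2, 6 each for Phgdh and Asns, 4 for Psph, 1 each for Aldh18a1 and Pck2, and 0 for Pycr1. Of the 4 enzymes with more than 1 annotated transcript (Psat1, Shmt2, Mthfd1l and Aldh18a1), Mthfd1l had the widest range of abundance-weighted transcript length, 3706.7 to 3719.6 bases over the 15 libraries. In the mm10 assembly (GENCODE M21) Mthfd1l lies at chr10:3973118-4167081 and Pck2 at chr14:55540266-55551242, both on the plus strand. On the minus strand lie Phgdh (chr3:98313170-98339990), Psat1 (chr19:15904678-15947337), Psph (chr5:129765558-129787449), Shmt2 (chr10:127517123-127522444), Mthfd2 (chr6:83305691-83325908), Aldh18a1 (chr19:40550257-40588463), Pycr1 (chr11:120635712-120643769) and Asns (chr6:7675169-7693254).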

How the data were processed

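Gene tables from 15 poly(A) libraries were analysed. The authors made them with RSEM on mm10, as the submitters' processing notes say. No release of RSEM, read aligner or gene annotation is stated in the sources used here. These tables hold, per the file headers, expected counts (estimated reads, unscaled), TPM, FPKM (not used) and transcript lengths. EBSeq tables were deposited too, whose posterior probabilities are deposited scores from 0 to 1 and whose fold changes are deposited ratios of knockdown to control.

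Expected counts were rounded, filtered by filterByExpr (14335 of 23845 genes, with 99.97% of the counts) and scaled by TMM. At 26836946 to 27708782 counts a library, counting error is small for all but the lowest genes. An edgeR quasi-likelihood fit of all 15 libraries gave every comparison. Adjustment was by Benjamini-Hochberg over all genes, with a threshold of 0.05. The code was tested on simulated data. The software was edgeR 4.0.16, DESeq2 1.42.0 and limma 3.58.1 under R 4.3.3. As alternatives, upper-quartile and RLE factors, limma-voom, DESeq2, a fit without the filter, a minimum of 10 CPM in 3 libraries, a replicate block, fits of only the 2 groups compared and fits without each library were run.

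The labels number the replicates. With group means removed, the 30 correlations between same-numbered libraries lay between 0.1058 and 0.335, and 15 of 15 libraries were closest to their own number, so the numbers pair the libraries. The fit that gives the reported values and the fits without a library do not use this pairing. The fit with the replicate block does, and its values stand beside a result where it changes the call.

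The 10 enzymes and the gene lists were chosen with earlier results of these data known. Named beside the 10 are their paralogues, Atf4, the 4 targets, up to 3 called genes per list with the largest mean change, and the 5 genes nearest in pattern. This rule also names Gnmt (called lower in Ddx10KD, -0.98), Prodh2 (higher in Ddx27KD, 1.38), Ahcyl1 (lower in Ddx27KD and Ddx54KD, -0.15 and -0.21), Gclc (higher in Ddx24KD, Ddx27KD and Ddx54KD, 0.21, 0.27 and 0.19) and Gss (lower in Ddx10KD, -0.25), on the log2 scale. These calls were lost without some library, except Ahcyl1 in Ddx54KD and Gclc in Ddx27KD. Gnmt and Prodh2 had very low counts. Gnmt was at 0.8855 CPM in EGFPKD and 0.4485 CPM in Ddx10KD, and Prodh2 at 0.1725 CPM in EGFPKD and 0.4553 CPM in Ddx27KD. The block added Ahcyl1 (0.0207) and Gss (0.00817) in Ddx24KD and Gclc (0.00524) in Ddx10KD, by adjusted p. Of the genes this rule names, 1 is not reported here. Promoter windows came from RefSeq (GRCm38.p6), where the 10 enzymes matched 11 windows.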

Additional observations from a re-analysis of the deposited data

How the results depend on the processing

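The 40 calls of the 10 enzymes against EGFPKD kept their direction and their side of the threshold with the upper-quartile or RLE factors, in limma-voom and DESeq2, without a filter, with the replicate block and in the fits of 2 groups. The filter of 10 CPM removed Pycr1 and kept the calls of the other 9. Leaving out each library in turn gave 9 to 10 enzymes called lower in Ddx10KD, Ddx24KD and Ddx54KD and 10 to 10 in Ddx27KD, and 591 values kept their call while 9, all for Pycr1, lost it. Between knockdowns, the 0 differences called by edgeR became 1 with DESeq2 and 1 with the replicate block, in both the Pck2 difference of Ddx54KD and Ddx10KD, and stayed at 0 to 0 when a library was left out. The share of all genes called between knockdowns is not given for DESeq2 or the block, so these counts have no background. The replicate block changed no other call of the 10 enzymes. Other pathway genes called lower ranged over the libraries left out from 22 to 32 in Ddx10KD, 19 to 30 in Ddx24KD, 23 to 33 in Ddx27KD and 19 to 25 in Ddx54KD. Those called higher ranged from 7 to 12, 6 to 12, 9 to 13 and 7 to 12 in the same order, with the lowest count in Ddx24KD without EGFPKD replicate 1 (6) and in Ddx54KD without EGFPKD replicate 1 or Ddx54KD replicate 2 (7 each). Scaling methods moved the median of all genes by at most 0.0096 on the log2 scale. With 3 libraries a group and 1 control group shared by all comparisons, the controls bear on every value, and no outlier test was made.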
